A study of Capsicum annuum with 78 samples.

Results

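In pepper leaves, 23 genes that were all but silent after water treatment were read after a hormone and reached their highest level with methyl jasmonate (MeJA, 10 genes) or with abscisic acid (ABA, 13 genes). A gene counted as silent when it held at most 2 counts in each of the 18 mock libraries. It was taken into the set when its highest mean among the 20 hormone and hour groups was at least 1 CPM (counts scaled to a library total of 1000000) and that group belonged to MeJA or ABA. Of 35884 genes in the table, 13515 were silent in mock by this limit, and 7868 of those had 0 counts in all 78 libraries. Only 248 silent genes passed 1 CPM with any hormone: 135 were highest with salicylic acid (SA), 90 with ethylene (ET), 13 with ABA and 10 with MeJA. The 23 genes are therefore 9.27% of the genes switched on and 0.170% of the silent genes. Because mock and hormone levels chose the genes, their levels against mock and the identity of the top hormone are given as a description, with no test.

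Jasmonate is made by plants after wounding and insect attack, and is known for turning on defence genes in leaves, such as those of proteinase inhibitors, by releasing transcription factors from repressor proteins. Abscisic acid accumulates in drying leaves, where it is bound by receptors that block phosphatases and so free protein kinases, and it is known for closing stomata and for turning on genes of water stress. Salicylic acid is best known for defence against pathogens that feed on living tissue, and ethylene for ripening, senescence and defence.

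The plants were 6-week-old *Capsicum annuum* of the cultivar Bukang. The treatments compared were distilled water as mock, sodium salicylate for SA, methyl jasmonate for MeJA, ethephon for ET, which releases ethylene in tissue, and racemic ABA. Leaves were taken at 1, 3, 6, 12 and 24 h, and in mock also at 0 h, with 3 libraries per group, each made from pooled leaves of 4 plants. Each treatment was incubated apart from the others, so treatment and incubation cannot be told apart, and reads of Bukang were counted on the genome of another cultivar, CM334. The identifiers are the only names: 0 of the 35884 were found in the RefSeq gene table at hand, so no gene name, role, sequence or leaf marker is given for any of them.

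The libraries held 4470356 to 8851726 counts, with a median of 6618439. The median was 6217800 with MeJA and 7619458 with ABA. At these depths 1 CPM is worth 4.47 to 8.85 counts and 3 counts are worth 0.339 to 0.671 CPM, so a gene near the limit of 1 CPM rests on a handful of reads. Pooled leaves do not show whether more RNA came from each cell or from more cells.

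The genes switched on by MeJA or ABA were few and low. Their median peak was 1.77 CPM with MeJA and 1.29 CPM with ABA, against 2.85 CPM for silent genes highest with SA and 2.74 CPM for those highest with ET. The highest peaks were 6.28 CPM with MeJA and 8.38 CPM with ABA, while SA reached 184 CPM and ET 108 CPM. No gene highest with MeJA or ABA came to 10 CPM, and 21 highest with SA and 18 highest with ET did. Silent genes did pass 1 CPM under these hormones more often than the set shows: 19 did so in some MeJA group, of which 10 were highest there, and 53 in some ABA group, of which 13 were. Of these, 8 passed it with both MeJA and ABA.

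**Figure D1:**
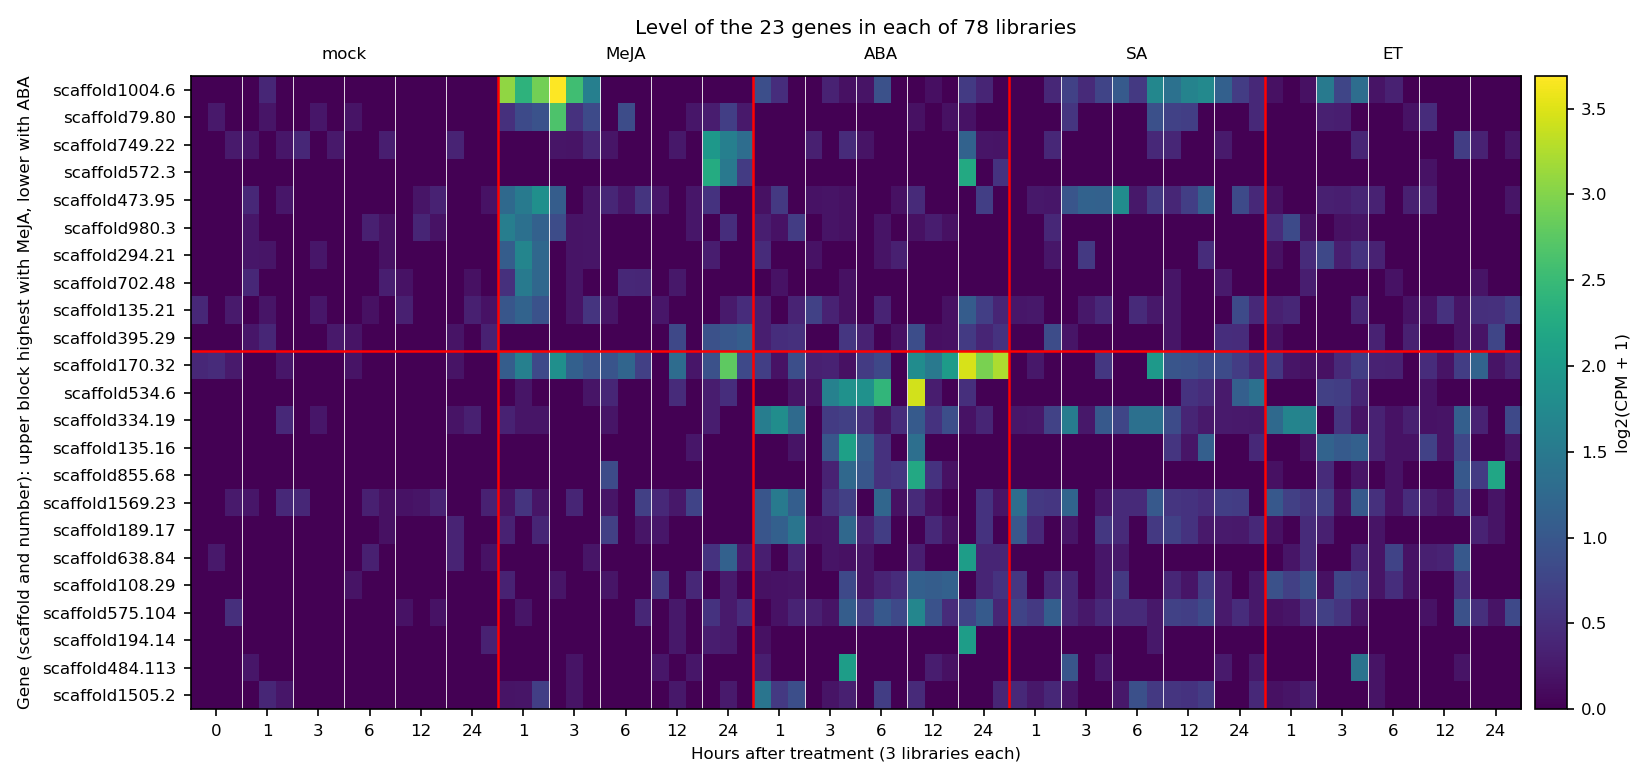
Heat map of log2(CPM + 1) of the 23 genes (rows, by the end of their identifiers) in the 78 libraries (columns, 3 per hour, grouped by treatment), with the 10 genes highest with MeJA above the red line and the 13 highest with ABA below it. The mock columns are dark by the rule, the MeJA genes are bright at 1, 3 or 24 h, and several ABA genes are bright in only 1 of the 3 libraries of a group.

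The hours of the peaks left a gap in the middle. With MeJA, 5 genes peaked at 1 h, 2 at 3 h and 3 at 24 h. With ABA, the 1 h group was highest for 4 genes and the 3 h group for 2, and later the 12 h group for 4 and the 24 h group for 3. None of the 23 peaked at 6 h with either hormone. In 9 of the 10 MeJA genes and 11 of the 13 ABA genes, no other hour of the same hormone had a mean at or above 50% of the peak. The 3 exceptions were CA.PGAv.1.6.scaffold1004.6 with MeJA and CA.PGAv.1.6.scaffold534.6 and CA.PGAv.1.6.scaffold575.104 with ABA. The rule picks each gene by its highest group at low counts, which favours a lone peak hour. Shares over other genes were not worked out, so these hours are not read as a trait of either hormone.

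The rule used the mean of 3 libraries and not their agreement, so the agreement is a separate measurement. All 10 MeJA genes and 7 of the 13 ABA genes had at least 3 counts in each library of the peak group, as did 126 of 135 genes highest with SA and 89 of 90 highest with ET. The libraries of the peak all lay above every mock library in 10 of 10 MeJA genes and 8 of 13 ABA genes, which the limit on mock largely fixes. It was so in 130 of the 135 SA genes and all 90 ET genes, and in 34.2% of all 4524 genes at 1 CPM or more that were highest with MeJA and 37.9% of all 4638 highest with ABA. In 4 ABA genes only 1 of the 3 libraries held 3 counts or more. The highest library carried over 75% of the summed CPM of the peak in 1 MeJA gene and 6 ABA genes, compared with 1 of 135 genes highest with SA and 1 of 90 highest with ET. Peaks under 3 CPM gave the same picture, with 1 of 9 MeJA genes, 5 of 11 ABA genes, 1 of 69 SA genes and 1 of 48 ET genes over 75%.

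**Figure D2:**
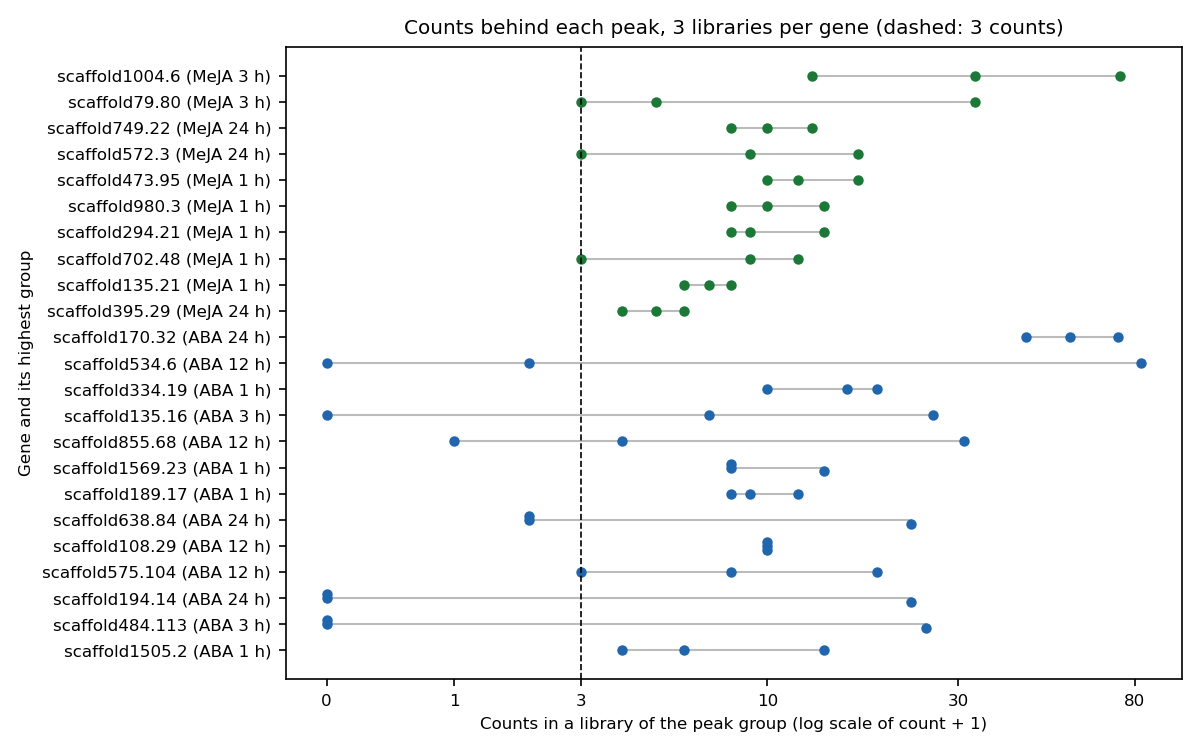
Counts in each of the 3 libraries of the highest group for the 23 genes, on a log scale of count + 1, with a dashed line at 3 counts; green points are MeJA genes and blue points ABA genes. All green points lie at or right of the line, whereas 6 blue genes have at least 1 library left of it.

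CA.PGAv.1.6.scaffold1004.6 was the highest MeJA gene. It held 53, 27 and 43 counts in the MeJA libraries at 1 h and 74, 33 and 13 counts at 3 h, and 0 counts in all 9 MeJA libraries of 6, 12 and 24 h. Its level was 6.06 CPM at 1 h and 6.28 ± 5.08 CPM (SD, n = 3) at 3 h, so both early hours were alike within the spread of the libraries and the gene was not read from 6 h on. The 18 mock libraries held 2 counts in all, both in 1 library. Against the 0 counts of mock at 3 h, taken as 3 counts over the group, the level was at least 35.6-fold higher. The same gene was read later and lower with SA, with 6, 3 and 13 counts at 6 h and 10, 14 and 12 counts at 12 h, where it came to 2.01 ± 0.372 CPM (SD, n = 3). With ET it was seen mainly at 3 h, with 15, 6 and 10 counts. The lowest MeJA library at 3 h and the highest SA library at 12 h overlapped.

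CA.PGAv.1.6.scaffold473.95 had a like course at a lower level. It held 10, 12 and 17 counts with MeJA at 1 h (1.95 ± 0.583 CPM, SD, n = 3) and 7, 0 and 1 at 3 h. With SA it held 0, 1 and 1 counts at 1 h but 6, 7 and 7 at 3 h and 14, 1 and 3 at 6 h. The MeJA libraries of 1 h were all above those of SA at 3 h, whose mean was 1.13 ± 0.149 CPM (SD, n = 3). Those of MeJA at 3 h were not. The first SA library of 6 h, with 14 counts, also exceeded the MeJA libraries of 1 h with 10 and 12. The total over 15 libraries was near the same, with 57 counts for MeJA and 58 for SA.

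Another 4 MeJA genes were read most at 1 h. CA.PGAv.1.6.scaffold980.3 held 14, 10 and 8 counts there and 5, 1 and 1 at 3 h. CA.PGAv.1.6.scaffold294.21 held 8, 14 and 9 counts at 1 h and at most 1 in any later MeJA library. CA.PGAv.1.6.scaffold702.48 held 3, 12 and 9 counts at 1 h and reached 3 counts in 0 of the 45 libraries of the other hormones, the only one of the 10 MeJA genes for which this was so. CA.PGAv.1.6.scaffold135.21 held 7, 8 and 6 counts at 1 h, and with ABA at 24 h it held 8, 4 and 2, so its groups overlapped. Their peaks ran from 1.05 CPM for scaffold135.21 to 1.58 CPM for scaffold980.3.

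CA.PGAv.1.6.scaffold79.80 peaked with MeJA at 3 h through 1 library, with 33, 3 and 5 counts. That library, the first MeJA replicate of 3 h, carried 81.3% of the summed CPM of the group, and it was also the highest for scaffold1004.6. Its mean correlation with the other libraries of its group was the lowest of all 78, at 0.964 on log2 values. Without it scaffold79.80 no longer passed 1 CPM and scaffold1004.6 stayed in the set. At 1 h scaffold79.80 held 3, 5 and 6 counts, so the gene was read in all 6 MeJA libraries of the first 3 h.

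**Figure D3:**
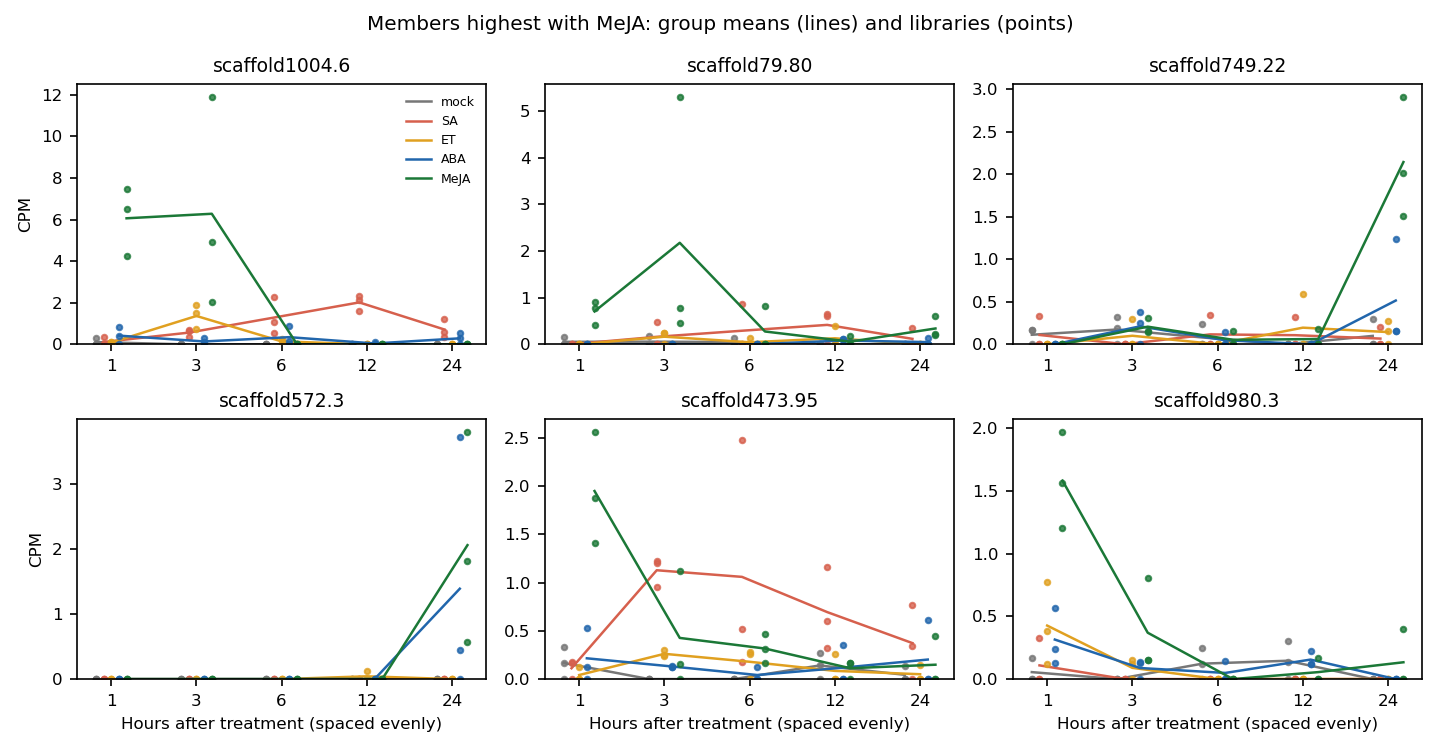
CPM of 6 MeJA genes at 1 to 24 h, with lines through group means and points for the 3 libraries per group, by treatment. Scaffold1004.6, scaffold473.95, scaffold79.80 and scaffold980.3 are highest at 1 or 3 h, with SA later for scaffold1004.6 and scaffold473.95, while scaffold572.3 and scaffold749.22 stay near 0 until 24 h.

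The other 3 MeJA genes came on at 24 h. CA.PGAv.1.6.scaffold749.22 held 13, 10 and 8 counts at 24 h (2.14 ± 0.71 CPM, SD, n = 3) and at most 2 in any earlier MeJA library, while ABA at 24 h gave 9, 1 and 1. CA.PGAv.1.6.scaffold572.3 was the only MeJA gene with 0 counts in all 18 mock libraries. It held 17, 9 and 3 counts with MeJA at 24 h and 27, 0 and 3 with ABA at 24 h, and in the other 54 hormone libraries a single count. Its highest library was thus one of ABA, although the mean put it with MeJA (2.06 against 1.39 CPM). CA.PGAv.1.6.scaffold395.29 held 4, 5 and 6 counts with MeJA at 24 h and had more counts over the 15 ABA libraries (33) than over the 15 MeJA libraries (19).

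All 3 of these late genes had ABA at 24 h as their next highest group, and so did scaffold135.21. Over the 10 MeJA genes the next hormone was ABA in 4, SA in 3 and ET in 3. The libraries of the peak overlapped with the best group of the next hormone in 4 genes and not in 6. Among all genes at 1 CPM or more highest with MeJA, 20.5% did not overlap. Among the silent genes 92 of 135 highest with SA and 61 of 90 highest with ET did not. With MeJA alone 7 of the 10 genes reached 1 CPM. So did 91 of the 135 SA genes and 45 of the 90 ET genes with their own hormone alone. Of all 4524 genes highest with MeJA, 160 did. Low peaks favour this count, so it is not read as a trait of MeJA.

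CA.PGAv.1.6.scaffold170.32 had the highest level of the whole set. In the first 6 h of ABA no library held over 6 counts. There were then 21, 16 and 25 counts at 12 h and 73, 44 and 56 at 24 h, so the rise came late. The level at 24 h was 8.38 ± 1.68 CPM (SD, n = 3), above every library of every other group. With MeJA it held 8, 13 and 5 counts at 1 h, 16, 8 and 6 at 3 h and 4, 29 and 4 at 24 h. Its MeJA counts in between were 6, 8 and 4 at 6 h and 0, 8 and 1 at 12 h, which put these groups at 0.962 and 0.547 CPM, under the limit. Mock at 24 h held 1 count over the 3 libraries, which makes the ratio 189, with an exact 95% counting interval of 33.4 to 7494 that covers counting error only.

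CA.PGAv.1.6.scaffold334.19 was read with ABA and ET alike at 1 h. It held 16, 19 and 10 counts with ABA (1.95 ± 0.534 CPM, SD, n = 3) and 11, 14 and 17 with ET (1.88 ± 0.428 CPM, SD, n = 3), with full overlap. With SA it came later, with 12, 1 and 6 counts at 3 h and 4, 9 and 9 at 6 h. MeJA gave 6 counts over 15 libraries. Its place among the ABA genes depended on scaling: with TMM factors its ET group was the higher one, at 2.19 against 2.11 CPM.

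Another 3 ABA genes peaked at 1 h in all 3 libraries. CA.PGAv.1.6.scaffold1569.23 held 8, 14 and 8 counts, CA.PGAv.1.6.scaffold189.17 held 8, 9 and 12, and CA.PGAv.1.6.scaffold1505.2 held 14, 4 and 6. For all 3, the best group of another hormone was one of SA, and its libraries overlapped with those of ABA at 1 h. The first was the least silent of the set, with 15 counts in 10 of the 18 mock libraries.

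At 12 h, CA.PGAv.1.6.scaffold108.29 held 10 counts in each of the 3 ABA libraries (1.18 ± 0.0463 CPM, SD, n = 3), the smallest spread of the 23 genes relative to its mean. CA.PGAv.1.6.scaffold575.104 held 19, 8 and 3 counts there, and 14 of the 15 ABA libraries had at least 1. With TMM factors these peaks were 0.971 and 0.961 CPM, just under the limit.

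In the ABA part of the set 3 genes had 0 counts in all 18 mock libraries, and they shared their highest ABA libraries of 3 h and of 12 h. At 3 h CA.PGAv.1.6.scaffold534.6 held 1, 15 and 21 counts, CA.PGAv.1.6.scaffold135.16 held 0, 7 and 26, and CA.PGAv.1.6.scaffold855.68 held 0, 2 and 11. At 6 h the counts were 19, 30 and 0 for scaffold534.6, 8, 3 and 0 for scaffold135.16, and 7, 3 and 4 for scaffold855.68. At 12 h they were 83, 2 and 0, then 13, 0 and 0, then 31, 4 and 1, in the same order. The third library was thus the highest at 3 h and the first at 12 h for all 3 genes, but at 6 h their orders differed. At 24 h they held 3 counts between them. The rule took these genes in by their 3 h or 12 h group, so this likeness is partly selected. Nor was it theirs alone. Scaffold575.104 held 2, 1 and 9 counts with ABA at 3 h and 19, 8 and 3 at 12 h. The MeJA gene scaffold395.29 held 0, 0 and 4 with ABA at 3 h and 7, 1 and 1 at 12 h.

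Outside ABA the 3 genes with 0 counts in mock were alike only in part. Scaffold135.16 held 10, 9 and 8 counts with ET at 3 h, closer together than its ABA libraries of 3, 6 or 12 h, and 1 count over 15 MeJA libraries. Scaffold855.68 held 4, 25 and 0 counts with ET at 24 h and 0 over 15 SA libraries. With TMM factors that ET group was the higher one, at 1.48 against 1.147 CPM. With ET at 3 h scaffold534.6 held 5, 5 and 2 counts and scaffold855.68 held 3, 0 and 1. With SA at 12 h scaffold534.6 held 0, 3 and 2 counts and scaffold135.16 held 3, 1 and 6. With SA at 24 h they held 1, 6 and 9 and 0, 0 and 2, in the same order.

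**Figure D4:**
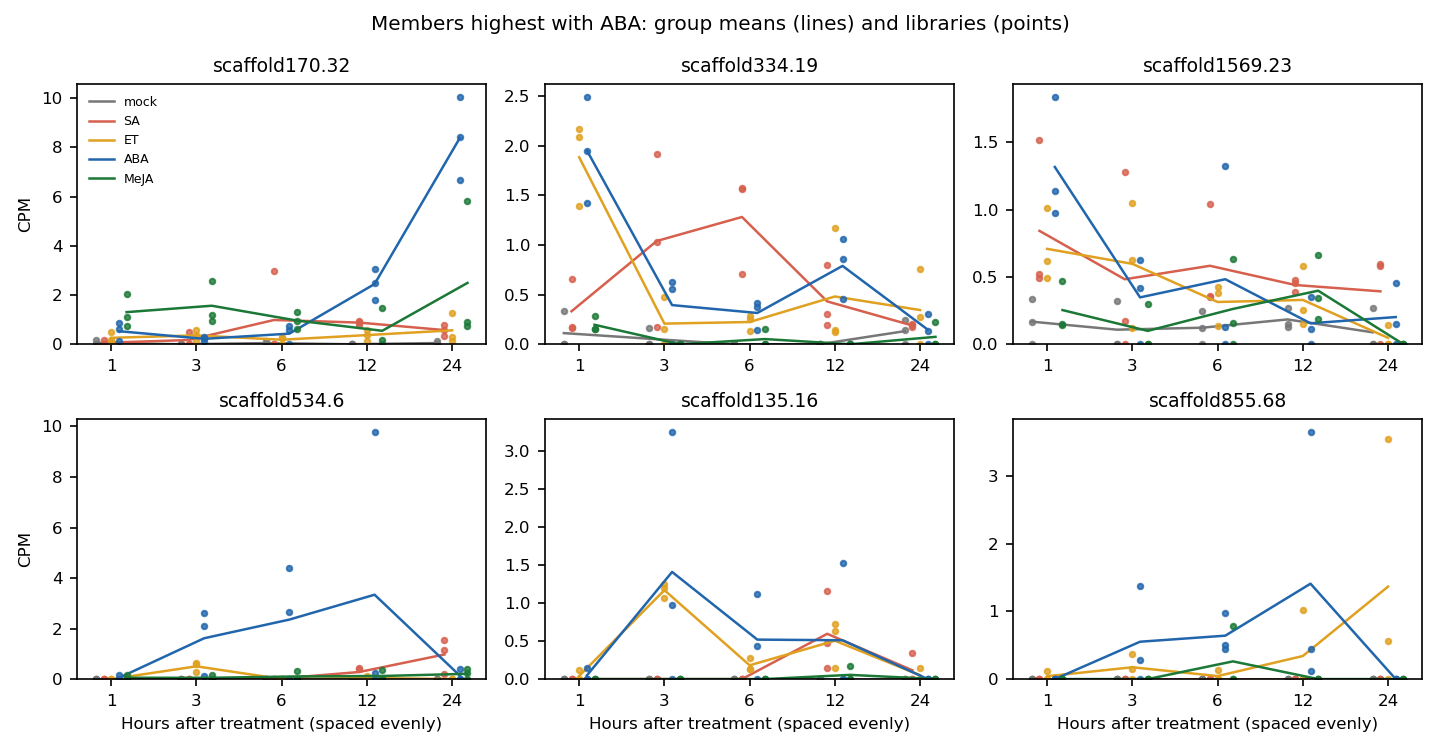
CPM of 6 ABA genes at 1 to 24 h, with lines through group means and points for the 3 libraries per group, by treatment. In the upper row the 3 libraries of the peak lie together, and in the lower row 1 library lies far above the others at 3 or 12 h.

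The last 3 ABA genes rested on 1 library each. CA.PGAv.1.6.scaffold638.84 held 23, 2 and 2 counts with ABA at 24 h, CA.PGAv.1.6.scaffold194.14 held 23, 0 and 0 at 24 h, and CA.PGAv.1.6.scaffold484.113 held 0, 0 and 25 at 3 h. For scaffold194.14 that library carried 82.1% of the counts over all 60 hormone libraries. Scaffold484.113 had 1 further library with 11 counts, with ET at 3 h, where the other libraries held 0.

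These single high counts fell in few libraries. Among the ABA genes the highest count over all hormone libraries lay in the first ABA library of 12 h for 4 genes, in the first of 24 h for 3 and in the third of 3 h for 2. The summed level of the 13 ABA genes was 22.9, 5.65 and 5.87 CPM in the ABA libraries of 12 h, 0.767, 5.15 and 15.4 CPM at 3 h, and 17.6, 9.57 and 9.91 CPM at 24 h. Genes with at least 10 counts in 1 library and at most 2 in both others numbered 24 in the first ABA library of 12 h, 25 in the third of 3 h and 7 in the first of 24 h, where the median of all libraries was 6.5 and the highest was 39. The mean correlation of these 3 ABA libraries with the others of their groups was 0.982 to 0.985, well inside the range of all libraries. The chi-square per degree of freedom between libraries of a group had a median of 4.67 over all pairs. For the first ABA library of 12 h it was 9.61 and 10.5 against the others, which gave 5.18 with each other. The third of 3 h gave 6.77 and 7.39, with 7.27 between the others. For the first of 24 h it was 4.15 and 4.95, with 4.13 between the others. Without the 12 h library 11 of the 13 ABA genes passed the rule, and without either of the other 2 libraries 11 did too. The part of single plants or libraries in these counts was not tested.

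**Figure D5:**
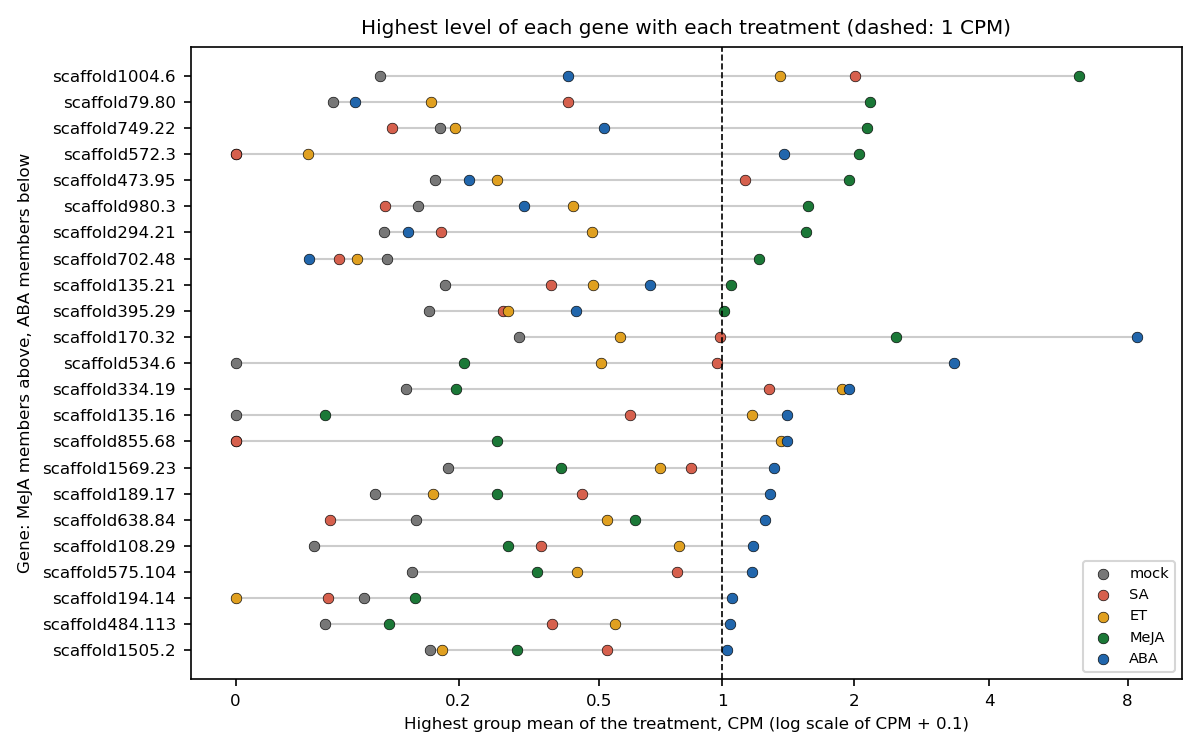
Highest group mean of each of the 23 genes with each treatment in CPM, on a log scale of CPM + 0.1, with a dashed line at 1 CPM. The top point is MeJA or ABA by the rule, and in several ABA genes the ET or SA point lies close below it.

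The next hormone of the 13 ABA genes was SA in 5, ET in 5 and MeJA in 3. The ABA libraries overlapped with those of that hormone in 11 genes and not in 2, scaffold170.32 and scaffold108.29. Among all genes at 1 CPM or more highest with ABA, 31.9% did not overlap. With ABA alone 9 of the 13 genes reached 1 CPM, as did 137 of all 4638 genes highest with ABA. Low peaks favour this count too, so it is not read as a trait of ABA. The ABA genes with a group at 1 CPM of another hormone numbered 1 with MeJA, 1 with SA and 3 with ET.

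Near the limit the set has no gap. The lowest MeJA gene inside, scaffold395.29, had a peak of 1.01 CPM, and the highest outside, CA.PGAv.1.6.scaffold264.2, had 0.994 CPM from 8, 5 and 1 counts with MeJA at 24 h. The lowest ABA gene inside, scaffold1505.2, had 1.03 CPM, and the highest outside, CA.PGAv.1.6.scaffold1161.30, had 0.922 CPM from 8, 7 and 4 counts with ABA at 24 h. In all, 5 genes of the set lay between 1 and 1.1 CPM and 4 silent genes between 0.9 and 1 CPM.

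Against mock, the average of the 5 hourly differences was called at an adjusted p under 0.05 for 30.4% of 18349 genes with MeJA and for 28.5% of 18713 genes with ABA (edgeR quasi-likelihood test, Benjamini-Hochberg). Most of the 23 genes were too low for the filter of that fit. Only scaffold1004.6 of the 10 MeJA genes was tested, and it was not called: its MeJA and mock groups of 6, 12 and 24 h were wholly at 0, and the fitted average had no usable error. No MeJA gene passed an unadjusted 0.05 in edgeR, and DESeq2 called 0. Of the 13 ABA genes 3 were tested and 2 were called higher, scaffold170.32 by 4.70 ± 0.57 (log2, SE) and scaffold334.19 by 3.19 ± 0.62. The rule chose the genes on this contrast, so nothing is read from these calls.

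Differences between hormones that the rule treated alike can be tested. For the MeJA genes these are ABA, SA and ET against each other, and for the ABA genes MeJA, SA and ET, always averaged over 1 to 24 h in 1 fit of the 60 hormone libraries with 19362 genes. Of the MeJA genes, scaffold1004.6, scaffold473.95 and scaffold572.3 passed the filter there. Genes of the set entered through the libraries where the rule made them high, so each is given by its own values and nothing is read from how many of those tested were called. ABA was lower than SA for 2 of these 3 genes, where 44.0% of all genes were called in either direction. The log2 difference was -1.62 ± 0.58 (SE) for scaffold1004.6 with an edgeR adjusted p of 0.0202, and -1.82 ± 0.61 for scaffold473.95 with an edgeR adjusted p of 0.0123. Neither was called without the third replicates, where the difference was -0.48 ± 2.52 for scaffold1004.6 and -1.74 ± 0.91 for scaffold473.95. ABA against ET was called for 67.6% of all genes and for 0 of the 3, with 0 under an unadjusted 0.05 in edgeR and 0 called by DESeq2. Of the 3, scaffold572.3 had no usable error in edgeR in ABA against SA or in ABA against ET, so it could not be called there.

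SA against ET was called for 66.6% of all genes and for 2 of the 6 genes of the set that were tested, both MeJA genes. Of the 6, scaffold572.3 and scaffold534.6 had no usable error in edgeR and could not be called. Scaffold1004.6 was higher with SA by 2.77 ± 0.72 (log2, SE), with an edgeR adjusted p of 7.86e-04, and it held 81 counts over the 15 SA libraries and 36 over the 15 ET libraries. Its ET groups of 12 and 24 h were wholly at 0, so the size of that difference depends on the prior count, and without the third replicates the fit gave it no usable error and no call. Scaffold473.95 was higher with SA by 2.12 ± 0.64, with an edgeR adjusted p of 0.00339, and held 58 counts with SA and 14 with ET. The call for scaffold473.95 was lost without the second replicates, at 1.58 ± 0.78 and an edgeR adjusted p of 0.0821.

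Of the ABA genes, scaffold170.32, scaffold334.19 and scaffold534.6 were tested. The first pair differed in opposite directions between MeJA and the other 2 hormones. MeJA against SA was called for 38.8% of all genes, and scaffold170.32 was higher with MeJA by 1.75 ± 0.49 (log2, SE; edgeR adjusted p = 0.0030), while scaffold334.19 was lower by a log2 difference of -3.25 ± 0.66 (edgeR adjusted p = 6.79e-05). MeJA against ET was called for 66.6% of all genes, with 1.84 ± 0.44 for scaffold170.32 (edgeR adjusted p = 2.46e-04) and -3.01 ± 0.64 for scaffold334.19 (edgeR adjusted p = 5.31e-05). Over 15 libraries scaffold170.32 held 120 counts with MeJA, 46 with SA and 38 with ET, and scaffold334.19 held 6, 58 and 69. Because the MeJA groups of scaffold334.19 at 3 and 12 h were wholly at 0, the size of both its differences depends on the prior count. Both calls for scaffold170.32 were lost without the second replicates, where its differences were 1.08 from SA and 0.83 from ET. The MeJA library of 24 h with 29 counts is among those left out.

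A fit with 1 effect over the hours and no filter, added after the data were seen, tests all 23 genes on these differences. Between ABA and SA, 5 of the 10 MeJA genes were called, where 22.7% of 27716 genes were. Scaffold572.3 was higher with ABA by 3.58 ± 1.06 (log2, SE; edgeR adjusted p = 0.0159) and scaffold980.3 by 1.95 ± 0.63 (edgeR adjusted p = 0.0386), and scaffold1004.6, scaffold473.95 and scaffold79.80 were lower. The call for scaffold572.3 rests on the 24 h libraries, since ABA at every earlier hour and SA throughout held 0. Of its 30 ABA counts, 27 lay in 1 library of 24 h. Between ABA and ET 1 of 10 was called, again scaffold572.3 and from the same ABA counts, against 44.4% of all genes.

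In the same fit MeJA and SA differed for 4 of the 13 ABA genes, where 19.1% of all genes were called. Only scaffold170.32 was higher with MeJA, and scaffold334.19, scaffold575.104 and scaffold1505.2 were lower. MeJA and ET differed for 5 of 13, where 44.2% of all genes were called. Again only scaffold170.32 was higher with MeJA, and scaffold334.19, scaffold135.16, scaffold108.29 and scaffold855.68 were lower, the largest of these being scaffold135.16 with a log2 difference of -3.72 ± 0.83 (edgeR adjusted p = 1.38e-04). SA and ET differed for 6 of 23, where 44.2% of all genes were called: scaffold1004.6, scaffold473.95, scaffold1505.2 and scaffold189.17 were higher with SA, and scaffold638.84 and scaffold855.68 were higher with ET. For scaffold855.68, 25 of the 42 ET counts lay in 1 library of 24 h. In this added fit the counts of genes of the set called were below the share of all genes in the comparisons with ET. They were above it in those of ABA and MeJA with SA, a description that covers 10, 13 or 23 genes. The planned fit with no filter did not repeat this for ABA against SA, where 2 of 10 MeJA genes and 8146 of 27716 genes were called. Nothing is read from these counts.

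The genes were scattered over the genome, as far as identifiers tell. The 23 came from 22 scaffolds, and the one pair on the same scaffold was scaffold135.16, an ABA gene, and scaffold135.21, a MeJA gene, with numbers 5 apart. The 4 identifiers between them were not switched on: scaffold135.17 and scaffold135.19 held 0 counts in all libraries, and scaffold135.18 and scaffold135.20 were above the limit in mock. In 5 of the 23 genes another switched-on gene lay within 5 numbers, as in 38 of the 225 genes highest with SA or ET.

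Of the 45 neighbours by number that the table holds, 18 were silent in mock and 2 were themselves switched on, CA.PGAv.1.6.scaffold79.81 and CA.PGAv.1.6.scaffold855.69. With ABA the latter held 0, 9 and 20 counts at 1 h, where scaffold855.68 held 0 in each library. It then held 6, 24 and 51 counts at 3 h, 14, 22 and 19 at 6 h and 30, 12 and 1 at 12 h, so at 3 and 12 h, but not at 6 h, its libraries had the same order as those of scaffold855.68. It was highest with ET at 3 h, with 70, 33 and 13. Whether reads of such neighbours were shared in counting was not tested. Of 14 neighbours of ABA genes that were tested against mock, 6 were higher with ABA, where 14.7% of all genes were. They were CA.PGAv.1.6.scaffold135.15 (1.82 ± 0.22, log2, SE), CA.PGAv.1.6.scaffold334.20 (1.62 ± 0.31), CA.PGAv.1.6.scaffold189.16 (1.45 ± 0.29), CA.PGAv.1.6.scaffold189.18 (1.17 ± 0.12), CA.PGAv.1.6.scaffold1569.24 (0.61 ± 0.23) and scaffold855.69 (5.17 ± 1.53). Not all were highest with ABA: scaffold135.15 reached 35.4 CPM with ET at 3 h and at most 13.5 CPM with ABA. For scaffold334.20 it was 10.4 CPM with SA at 6 h and at most 2.17 CPM with ABA. Scaffold1569.24 came to 5.63 CPM with SA at 1 h and 5.41 CPM with ABA at 1 h. Only scaffold189.16 and scaffold189.18 had their highest group mean with ABA, both at 1 h, and both lie beside the same gene, scaffold189.17. Scaffold855.69 was itself silent in mock by the rule. Its mock groups of 1, 3 and 12 h were wholly at 0, so the size of its difference depends on the prior count. Nothing is read from how many neighbours were called. Another 3 neighbours of ABA genes were lower, where 2588 of 18713 genes were. Of 8 tested neighbours of MeJA genes, 2 were higher with MeJA, where 15.3% of all genes were: CA.PGAv.1.6.scaffold1004.7 by 1.58 ± 0.14 and CA.PGAv.1.6.scaffold79.79 by 0.15 ± 0.04. Another 1, CA.PGAv.1.6.scaffold294.20, was lower, with a log2 difference of -0.25 ± 0.09, where 2765 of 18349 genes were lower. The genome was not given here, so distances and strands of these neighbours are not reported.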

How the data were processed

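The authors trimmed the strand-specific paired reads with cutadapt 1.15 and Trimmomatic 0.38, aligned them by HISAT2 to version 1.6 of the CM334 genome and tallied reads over genes in HTSeq 0.11.2, tools and versions per the submitters' processing notes. The deposited values are raw counts, 1 column per library and none pooled. The strand setting and the handling of multi-mapping reads are not given in the sources used here, so gene copies and overlapping genes may share counts. All 78 columns matched a sample title.

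CPM was computed from column totals. The members, lists and comparisons were chosen with earlier results of these data known. The rule for named genes took, per hormone, the 5 highest genes with replicate support, the 2 most dependent on 1 library, those beside the limit, runs on a scaffold and the smallest adjusted p. The set is small, so all other members were named too, as were neighbours, after their values were seen. Tests used edgeR 4.0.16 in R 4.3.3 (filterByExpr, TMM, glmQLFit, glmQLFTest), adjusted over all genes tested. The code was tested on simulated counts, where genes with more counts than those of the set were changed alike at every hour. It recovered most of the changes put in. That run does not bear on genes as low as these or on changes at a single hour. Each SE came from the F statistic, and averages whose fitted SE was over 100, all with groups wholly at 0, were treated as void. Alternatives were RLE scaling, DESeq2 1.42.0, no filter, a replicate block, left-out replicates and other limits of the rule. Fits with 1 effect over the hours, the rule without single ABA libraries, and the rule with 3 counts in each peak library are later additions, made once the values were known. Libraries of a group differed by more than counting noise, with a chi-square per degree of freedom of at least 1.99 in 78 pairs. The labels call the 3 libraries of a group biological replicates.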

Additional observations from a re-analysis of the deposited data

How the results depend on the processing

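The set depends on its limits more than on scaling. TMM factors gave 12 MeJA and 11 ABA genes (10 and 9 shared), and the median of 3 libraries 10 and 9 (8 and 5 shared). With 0 counts demanded in mock the numbers were 1 and 3, with at most 5 counts 39 and 40, and at 2 CPM 4 and 2. Leaving out each replicate number in turn gave 15 to 18 MeJA genes and 15 to 24 ABA genes. Without replicates 1, 2 and 3 these shared 9, 8 and 9 MeJA genes and 7, 12 and 11 ABA genes with the set. The mock limit and the group means then rested on fewer libraries. With 3 counts in each peak library 7 ABA genes were left. Over both hormones 17 genes had 3 counts in each peak library, 19 at least 1 and 5 at least 10.

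The number of genes of the set called differed between fits. Calls over all genes stand in brackets. The rule chose the genes on the contrasts with mock, and nothing is read from any of these numbers. With no filter, 2 MeJA genes (5534 of 26594) and 7 ABA genes (5236 of 26721) were called against mock. Over 27716 genes, 1 was called between ABA and ET (13344) and 5 between MeJA and SA (7187). There were 4 between MeJA and ET (13070) and 5 between SA and ET (13041). With 1 effect over the hours, 1 MeJA gene was called against mock (4241 of 18349) and 1 between ABA and ET (11743 of 19362). With 1 effect and no filter, 5 MeJA genes (3920 of 26594) and 10 ABA genes (3790 of 26721) were called against mock. Over 27716 genes, 5 were called between ABA and SA (6285) and 1 between ABA and ET (12304). There were 4 between MeJA and SA (5294), 5 between MeJA and ET (12250) and 6 between SA and ET (12257). Without the first MeJA library of 3 h, 1 MeJA gene was called against mock (5822 of 18673). Leaving out replicate numbers gave 0 to 2 genes for ABA and SA (6404 to 7399) and 1 to 3 for MeJA and SA (5533 to 6005). It gave 1 to 2 for MeJA and ET (11439 to 11784) and 1 to 2 for SA and ET (11381 to 11630). Over all genes, left-out libraries and replicate numbers gave 3241 to 5822 calls for MeJA against mock and 3088 to 5097 for ABA against mock. Of 103 alternative values with a usable error for called differences of single genes between hormones, 0 changed sign and 5 lost the call. Of 69 for differences not called, 12 changed sign. The 5 leave out SA against ET for scaffold1004.6, whose error became unusable without the third replicates. Each such called difference of scaffold1004.6, scaffold473.95 and scaffold170.32 was lost in a fit without 1 replicate number. The share of 5 in 103 is thus no measure of how stable the calls were. Replicate numbers did not pair the libraries: correlations of same-numbered deviations averaged from -0.09 to 0.03 over 7 pairs of treatments. With the replicate block 2 ABA genes were called against mock (5572 of 18713), and RLE scaling, DESeq2 and the block moved no count by over 1.5 times. Depth limits the set: 3 counts are worth up to 0.671 CPM.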
